A study of Mus musculus with 16 samples.

Results

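The 42 type I interferon response genes described here are a named list of genes known to be induced by interferon, followed in the atria of mice after myocardial infarction. A gene was taken where a measured row of the array carried its symbol and no other, and 40 of the 42 had such a row. Each of the 40 had 1 row, and all 40 passed the filter on low signal that left 18419 of 30141 annotated genes for testing. Ifi44 had no row, and Phf11d appeared only on 2 rows shared with other symbols, so neither was analysed here. Ifit3b was found through its gene ID, because the array annotation gives it an older clone name. The mice were 10-week-old wild-type C57BL/6 males, and the left anterior descending artery was ligated to cause infarction. Atria were taken 1, 3 or 7 days after ligation (arrays 11 to 14, 31 to 34 and 71 to 74) and after sham surgery (arrays 1 to 4), with 4 arrays per group. The labels used here do not say how long after surgery the sham atria were taken, or whether an array holds atria of 1 mouse or of several. The p-values therefore measure the spread between these arrays, which may be technical, and precision is limited by having 4 per group.

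Interferons are secreted by cells that sense viral or misplaced nucleic acid. Type I interferons bind the receptor chains Ifnar1 and Ifnar2, whose kinases activate Stat2, which joins Irf9 in a complex that binds a motif with repeated GAAA in the promoters of interferon-stimulated genes. The products block viral entry, translation and replication, raise the sensors and transcription factors of the same pathway, or, as Usp18 does, damp the receptor. In infarcted hearts of mice the response is known from macrophages, neutrophils and border-zone cells, and some listed genes, the guanylate-binding proteins above all, also respond to interferon gamma.

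The promoters carry the letters of that motif far more often than promoters in general, and some stretches are printed from members that hold a match. The RefSeq promoter table (GRCm38.p6, 250 bases before to 50 after each annotated start) held 35 windows for 30 of the 40 genes. GAAA, then any 2 bases, then GAAA (TTTC, any 2 bases and TTTC when read on the other strand) was present in 18 of the 35 windows (51.4%) and in 17 of the 30 genes (56.7%), with overlapping matches counted. Over the whole table it was present in 1131 of 32851 windows (3.44%). Capitals mark the letters that match the spaced GAAA pair on either strand, and each stretch is written 5′ to 3′ on the strand of its gene.
Ifit1, chr19:34640770-34640809, plus strand: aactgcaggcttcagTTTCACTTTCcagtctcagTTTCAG
Ifit3, chr19:34583358-34583397, plus strand: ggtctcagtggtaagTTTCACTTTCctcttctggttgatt
Ifit3b, chr19:34607754-34607793, plus strand: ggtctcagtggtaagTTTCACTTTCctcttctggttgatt
Isg15, chr4:156200872-156200911, minus strand: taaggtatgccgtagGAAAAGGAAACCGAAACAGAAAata
Bst2, chr8:71537578-71537617, minus strand: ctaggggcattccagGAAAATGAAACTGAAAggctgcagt
Stat2, chr10:128270261-128270300, plus strand: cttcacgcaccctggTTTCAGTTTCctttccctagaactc
Gbp2, chr3:142620589-142620628, plus strand: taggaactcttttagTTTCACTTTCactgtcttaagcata
Igtp, chr11:58199507-58199546, plus strand: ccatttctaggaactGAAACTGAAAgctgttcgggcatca
The stretch of Ifit3 is letter for letter that of Ifit3b, and the values of these close copies are uncertain in that a probe may read both. The capitals at the end of the Ifit1 stretch open a further match that runs past it. Isg15 held 3 overlapping matches in its window and Bst2 held 2. A match describes the letters only and does not show that a factor binds there.

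The values deposited by the authors are log2 signals of 72688 rows, and differences are given as log2 differences of these signals. Column medians lay between 4.17 and 4.61. Array quality was judged by control separation, the area under the receiver operating curve between positive and negative control rows, where 1 is complete. It was 0.755 for day 1 array 13 and 0.743 for day 3 array 31, below 0.793 to 0.825 on the other 14 arrays. The mean signal of 8 cardiomyocyte markers, several of them atrial, was 13.12 to 14.15 on day 1, 11.61 to 14.77 on day 3 and 14.51 to 15.30 on day 7, against 15.65 to 15.88 in sham, with array 31 the lowest. Whether a difference in such bulk tissue reflects more cells of a type or more RNA per cell cannot be told apart. Where all 4 arrays of a group gave a gene no more than their negative-control median, it counted as not above background in that group, and a difference from it was read as a lower bound. Among the members this held for Oas3 in the day 1 and sham groups, and for Mx1 and Oasl1 in the sham group.

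The interferon response genes were higher 7 days after infarction than in sham atria almost throughout the list. A gene was called where limma's moderated test gave a Benjamini-Hochberg adjusted p under 0.05. On day 7, 34 of 40 members were called higher and 0 lower, where 14.9% of all tested genes were called higher and 9.92% lower. Every one of the 40 had its 4 day 7 values above its 4 sham values, which held for 19.9% of all tested genes. For Oas3 this order lay at background, because its values on arrays 71, 72 and 73 were also below the negative-control medians. On day 3, 19 members were called higher and 0 lower, where 23.5% of all tested genes were called higher and 20.2% lower. On day 1, 5 were called higher and 0 lower, where the shares over all tested genes were 24.9% and 22.2%. The 4 infarction values lay above the 4 sham values in 24 members on day 1 (30.9% of all tested genes) and in 16 on day 3 (22.3%). The share of members called on day 1 was thus below that of all genes. The median log2 difference of the members was 0.69 on day 1, 1.46 on day 3 and 2.29 on day 7, beside medians of 0.064, 0.082 and −0.006 over all tested genes. The 3 comparisons share the 4 sham arrays. At an unadjusted p under 0.05, 7, 32 and 38 members were higher on days 1, 3 and 7, and 0 lower, the 7 on day 1 being the 5 called with Oas1a and Oas3. Oas3 was not above background in the day 1 and sham groups, so no size is read from it there. No share of all tested genes is given at this threshold. On day 1, 24.9% of them were higher even after adjustment, so 7 of 40 is not read as an excess.

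**Figure D1:**
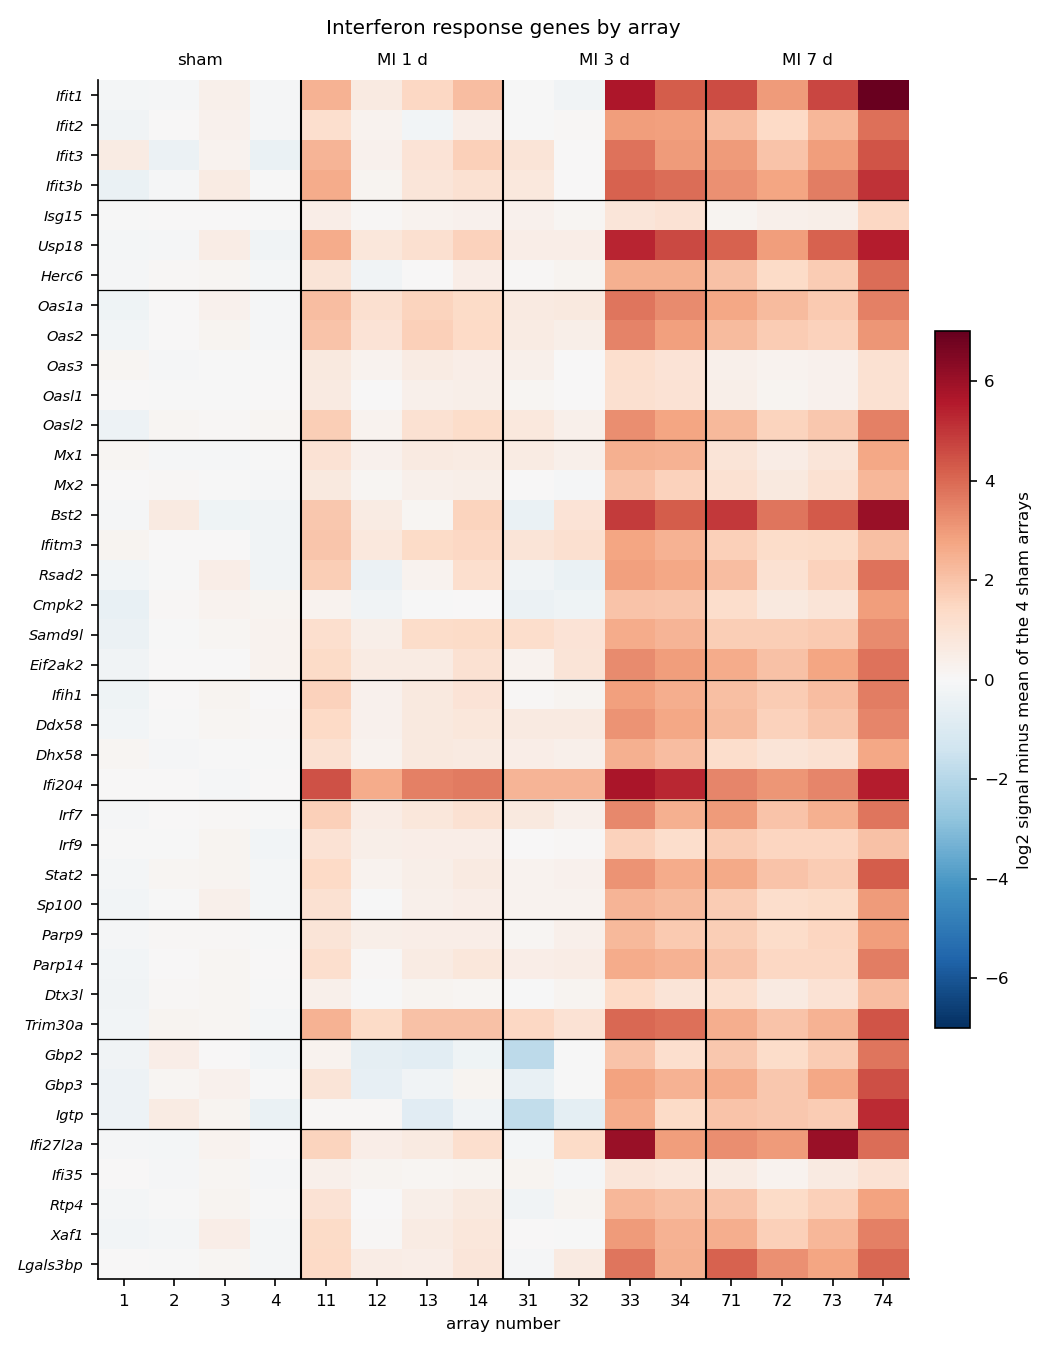
Heat map of the 40 measured interferon response genes (rows, grouped by role with lines between roles) on the 16 arrays (columns, numbered as in the text), coloured by log2 signal minus the mean of the 4 sham arrays. The day 7 arrays and day 3 arrays 33 and 34 are red in nearly every row, reaching a list mean of 3.51 above sham on array 74, whereas day 3 arrays 31 and 32 stay near the sham level with list means of 0.23 and 0.34.

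By role, the IFIT proteins, which bind foreign RNA and block its translation, had a median difference from sham of 3.37 on day 7. All 4 were called on day 7, 1 of 4 on day 3 and 0 of 4 on day 1. Ifit1 had signals of 8.75, 6.94, 7.76 and 8.49 on day 1, 6.29, 6.11, 11.99 and 10.56 on day 3, and 10.87, 9.31, 10.98 and 13.26 on day 7, against 6.18, 6.26, 6.66 and 6.23 in sham. Every day 1 and day 7 array lay above every sham array, and the day 7 arrays also lay above the day 1 arrays, whereas day 3 arrays 31 and 32 were at the sham level and arrays 33 and 34 far above it. The log2 difference of Ifit1 from sham was 4.77 on day 7 (SE 1.15, adjusted p = 0.00723). It was 1.65 on day 1 and 2.41 on day 3 with the same SE, and neither passed the test (adjusted p = 0.239 and 0.106). Ifit3b differed by 3.66, Ifit3 by 3.07 and Ifit2 by 2.44 on day 7. Of these, Ifit3b alone was called on day 3, by 2.21 (adjusted p = 0.0479), a call lost in 12 of the 16 fits that left out 1 array, and Ifit2 was not called on day 7 without array 74.

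The ISG15 system attaches the ubiquitin-like Isg15 to other proteins, with Herc6 as a ligase in mice and Usp18 as the protease that takes it off. Usp18, which also restrains signalling from the type I receptor, had signals of 8.25, 6.43, 6.77 and 7.29 on day 1, 6.15, 6.12, 11.00 and 10.29 on day 3, and 9.79, 8.58, 9.77 and 11.14 on day 7, against 5.54, 5.57, 6.16 and 5.39 in sham. All day 1 and day 7 arrays were above all sham arrays, while day 3 arrays 31 and 32 fell just below sham array 3. Usp18 was higher by 4.16 on day 7 (SE 0.96, adjusted p = 0.00584) and by 2.73 on day 3 (adjusted p = 0.0331), the day 3 call being lost without array 33 or 34 and without sham array 1, 2 or 4. Its day 1 difference of 1.52 was not called (adjusted p = 0.199). On days 3 and 7 Isg15 itself had the smallest differences of the 3. Its signals were 5.35, 4.95, 5.11 and 5.19 on day 1, 5.17, 5.0, 5.70 and 5.90 on day 3, and 5.08, 5.20, 5.27 and 6.30 on day 7, against 4.86, 4.87, 4.91 and 4.86 in sham. All 12 infarction arrays of Isg15 lay above all 4 sham arrays, yet its differences of 0.28, 0.57 and 0.59 on days 1, 3 and 7 were not called (adjusted p = 0.347, 0.0705 and 0.0921). The negative-control medians were 4.47 to 4.53 in sham, but 4.69 to 4.87 on day 1 and 4.93 on array 31. Isg15 thus lay near background, which limits what its order against sham shows. Herc6 was called on day 7 only among the days, with a difference of 2.28 (adjusted p = 0.0129).

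The oligoadenylate synthetases make the short adenylate chains that activate RNase L, except that Oasl1 and Oasl2 are related proteins with other actions. Of these 5 genes 1 was called on day 1, 4 on day 3 and 3 on day 7. Oas2 had signals of 7.56, 6.50, 7.20 and 6.92 on day 1, 6.15, 5.97, 9.0 and 8.44 on day 3, and 7.78, 7.34, 7.14 and 8.66 on day 7, against 5.36, 5.59, 5.76 and 5.48 in sham. Every infarction array was above every sham array. The differences of Oas2 were 1.49 on day 1 (adjusted p = 0.0463), 1.84 on day 3 (0.0184) and 2.18 on day 7 (0.0127), and the day 1 call was lost without any of the 4 sham arrays, without day 1 array 11, 13 or 14 and without day 7 array 71, 72 or 73. Oas1a, with differences of 1.54, 2.09 and 2.57, was called on days 3 and 7. Oasl2, with 1.07, 1.79 and 2.31, was likewise called on those days. Oasl1, at background in sham, differed by at least 0.26 on day 7 and was not called (adjusted p = 0.161), and nor was Oas3 (adjusted p = 0.142), whose bound did not exceed 0. For Oas3 on day 3 the called difference was at least 0.04 (adjusted p = 0.0401).

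The other antiviral effectors act at different steps of infection, and 2 of 8 were called on day 1, 4 of 8 on day 3 and 5 of 8 on day 7. Bst2, or tetherin, holds budding virus particles at the cell surface. It had signals of 11.29, 10.00, 9.51 and 10.97 on day 1, 8.94, 10.37, 14.32 and 13.62 on day 3, and 14.34, 13.16, 13.71 and 15.47 on day 7, against 9.32, 10.01, 9.09 and 9.18 in sham. The day 7 values stood clear of every day 1 and every sham value, while the day 1 and sham values overlapped. The difference of Bst2 from sham was 4.77 on day 7 (SE 0.95, adjusted p = 0.00229), and its differences of 1.04 on day 1 and 2.41 on day 3 were not called (adjusted p = 0.373 and 0.054).

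Ifitm3, which blocks virus entry from endosomes, was called on every day. Its signals were 13.70, 12.52, 13.11 and 13.21 on day 1, 12.68, 12.88, 14.53 and 14.19 on day 3, and 13.43, 13.07, 13.11 and 13.89 on day 7, against 11.96, 11.80, 11.82 and 11.50 in sham. All 12 infarction arrays lay above all sham arrays, arrays 31 and 32 included. The differences of Ifitm3 were 1.36, 1.80 and 1.61 on days 1, 3 and 7 (SE 0.38, adjusted p = 0.00963, 0.00148 and 0.00612). Samd9l, an antiviral inhibitor of translation, differed by 1.04, 1.78 and 2.15 and was called on all 3 days, with the day 1 call (adjusted p = 0.0484) lost without any sham array, without array 11, 13 or 14 and without array 71, 72 or 73. Eif2ak2, the RNA-activated kinase PKR, was called on day 3 by 1.83 and on day 7 by 2.80. Mx1, of a family of dynamin-like GTPases, was called on day 3 by at least 1.02 (adjusted p = 0.0305), and its day 7 difference of at least 0.81 was not called (adjusted p = 0.0902). Its relative Mx2 was called on day 7 by 1.27 (adjusted p = 0.0425), a call lost without any of the sham arrays, without array 11, 12 or 14 and without array 71, 73 or 74. Rsad2, or viperin, differed by 2.18 on day 7 (adjusted p = 0.0557), and Cmpk2, a mitochondrial nucleotide kinase encoded beside it, by 1.43 (adjusted p = 0.0832), so neither was called.

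**Figure D2:**
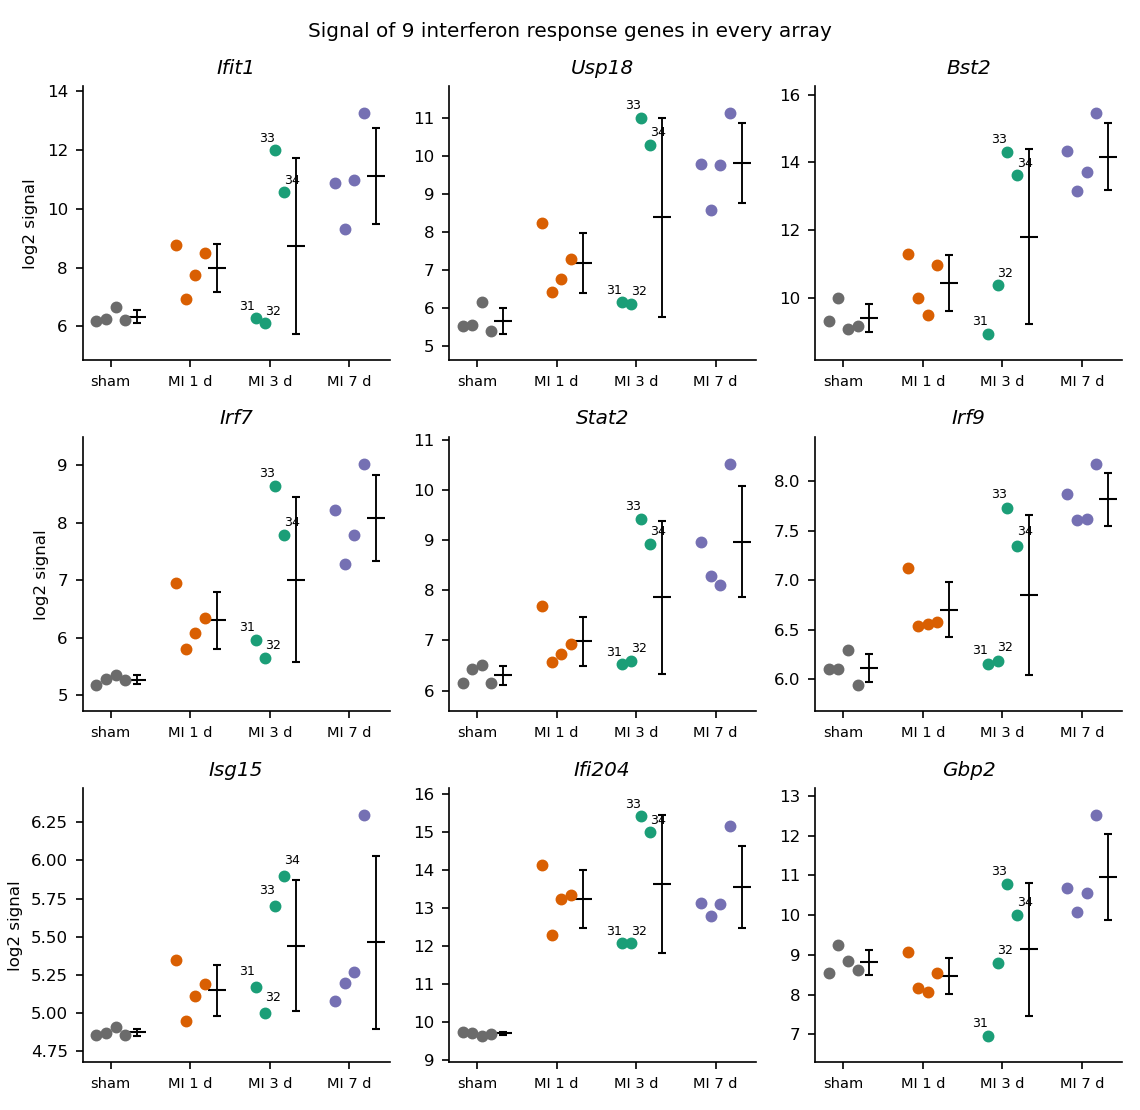
Log2 signal of 9 members on every array, as dots by group in order of time with sham first, with mean and SD (n = 4) drawn to the right of each group and the day 3 arrays numbered. All 9 show arrays 33 and 34 above arrays 31 and 32 on day 3. Irf7, Stat2, Isg15 and Ifi204 stand above sham on all 12 infarction arrays.

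Among the nucleic acid sensors, 1 of 4 was called on day 1, 3 of 4 on day 3 and 4 of 4 on day 7. Ifi204, a mouse sensor of DNA of the HIN-200 family, had the largest difference of any member on days 1 and 3. Its signals were 14.12, 12.27, 13.23 and 13.33 on day 1, 12.07, 12.06, 15.41 and 14.99 on day 3, and 13.12, 12.79, 13.11 and 15.16 on day 7, against 9.74, 9.71, 9.63 and 9.69 in sham. The lowest infarction array was still well clear of the highest sham array. Ifi204 was higher by 3.55, 3.94 and 3.86 on days 1, 3 and 7 (SE 0.74, adjusted p = 0.00171, 0.000674 and 0.0017). The cytosolic RNA sensors were not called on day 1. Ddx58 (RIG-I) differed by 0.80, 1.77 and 2.30 and its regulator Dhx58 by 0.65, 1.38 and 1.48, both called on days 3 and 7, the day 7 call of Dhx58 being lost without any sham array and without array 71 or 74. Ifih1 (MDA5) differed by 0.90, 1.41 and 2.41 and was called on day 7 (adjusted p = 0.0082).

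The transcription factors Irf7, Irf9 and Stat2 and the nuclear body protein Sp100 were all called on day 7, though Sp100 (1.85, adjusted p = 0.0146) was not without array 74. Of these 4, 1 was called on day 3, and on day 1 limma called 0, with 0 also at an unadjusted p under 0.05. Irf7, which drives production of type I interferon itself, had signals of 6.96, 5.81, 6.08 and 6.35 on day 1, 5.96, 5.65, 8.64 and 7.78 on day 3, and 8.23, 7.28, 7.78 and 9.03 on day 7, against 5.18, 5.29, 5.36 and 5.26 in sham. All 12 infarction arrays were above sham, and the day 7 arrays were also above the day 1 arrays. Irf7 differed by 1.03 on day 1 (adjusted p = 0.136), 1.73 on day 3 (0.0205) and 2.81 on day 7 (0.00214).

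Stat2, a subunit of the factor activated by the receptor, had signals of 7.69, 6.57, 6.73 and 6.93 on day 1, 6.52, 6.59, 9.43 and 8.92 on day 3, and 8.96, 8.28, 8.10 and 10.53 on day 7, against 6.14, 6.43, 6.50 and 6.14 in sham. The lowest arrays of days 1 and 3 were only just above the highest sham array. Its differences were 0.68, 1.56 and 2.66, of which the day 7 one was called (adjusted p = 0.387, 0.0624 and 0.0073). Irf9, the DNA-binding subunit that joins it, had signals of 7.12, 6.54, 6.56 and 6.58 on day 1, 6.15, 6.18, 7.73 and 7.35 on day 3, and 7.87, 7.61, 7.62 and 8.18 on day 7, against 6.10, 6.10, 6.29 and 5.94 in sham. On day 3 arrays 31 and 32 lay within the sham values. Irf9 differed by 0.59, 0.74 and 1.71 on days 1, 3 and 7 (SE 0.30, adjusted p = 0.116, 0.0594 and 0.000956), and its day 7 spread was the smallest of the members (SD 0.27).

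Parp9 and Dtx3l form a complex that joins ADP-ribosylation to ubiquitin ligation, Parp14 is a related transferase and Trim30a is a mouse TRIM protein that restrains inflammatory signalling. Of these 4, 1 was called on day 1, 3 on day 3 and 4 on day 7. Trim30a had signals of 9.80, 8.68, 9.37 and 9.39 on day 1, 8.79, 8.37, 11.34 and 11.22 on day 3, and 9.91, 9.35, 9.80 and 11.74 on day 7, against 7.13, 7.55, 7.45 and 7.22 in sham. No infarction array overlapped sham. It was higher by 1.97, 2.59 and 2.86 (SE 0.64, adjusted p = 0.0226, 0.00462 and 0.0048), and the day 1 call was lost without array 11. Parp9 differed by 1.84, Parp14 by 2.11 and Dtx3l by 1.23 on day 7, all called.

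The guanylate-binding proteins Gbp2 and Gbp3 and the immunity-related GTPase Igtp, which attack the vacuoles of intracellular microbes, were all called on day 7, against sham and against day 1. Against sham limma called 0 of 3 on days 1 and 3, with 0 also at an unadjusted p under 0.05. Igtp had signals of 8.37, 8.40, 7.53 and 8.05 on day 1, 6.58, 7.62, 10.88 and 9.64 on day 3, and 10.27, 10.20, 10.10 and 13.51 on day 7, against 7.96, 8.88, 8.50 and 7.85 in sham. Day 3 arrays 31 and 32 were below every sham array, and the day 7 arrays were above every sham and every day 1 array. Gbp3 had signals of 7.26, 5.81, 6.11 and 6.55 on day 1, 5.85, 6.33, 9.19 and 8.79 on day 3, and 8.99, 8.24, 9.06 and 10.88 on day 7, against 6.01, 6.50, 6.66 and 6.35 in sham. The differences on day 7 were 2.72 for Igtp (adjusted p = 0.0324), 2.91 for Gbp3 (0.00743) and 2.15 for Gbp2 (0.0315), beside −0.21, 0.05 and −0.35 on day 1. Without array 74, or without sham array 1, 3 or 4, Igtp and Gbp2 were not called on day 7, nor was Gbp2 without array 71.

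The remaining induced genes were called in 0 of 5 cases on day 1, 2 of 5 on day 3 and 5 of 5 on day 7. Ifi27l2a, a small hydrophobic membrane protein, had signals of 7.45, 6.35, 6.53 and 7.07 on day 1, 5.77, 7.24, 11.90 and 8.79 on day 3, and 9.11, 8.84, 11.91 and 9.77 on day 7, against 5.78, 5.73, 6.10 and 5.91 in sham. On day 7 array 73 was the highest, and array 31 lay within the sham values. Its differences were 0.97, 2.54 and 4.03 (SE 0.99), called on days 3 and 7 (adjusted p = 0.0499 and 0.00819), and the day 3 call was lost when any sham or any day 1 array was left out, without array 33 or 34 and without array 71, 72 or 74. Lgals3bp, a secreted protein that binds galectins, differed by 3.53 on day 7 (SE 0.63, adjusted p = 0.00102). Xaf1, which binds an inhibitor of apoptosis, differed by 2.52, Rtp4, a chaperone of membrane receptors, by 1.96 and Ifi35, a partner of Nmi, by 0.61 on day 7, the last call being lost without sham array 1, 2 or 4 and without array 73 or 74.

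**Figure D3:**
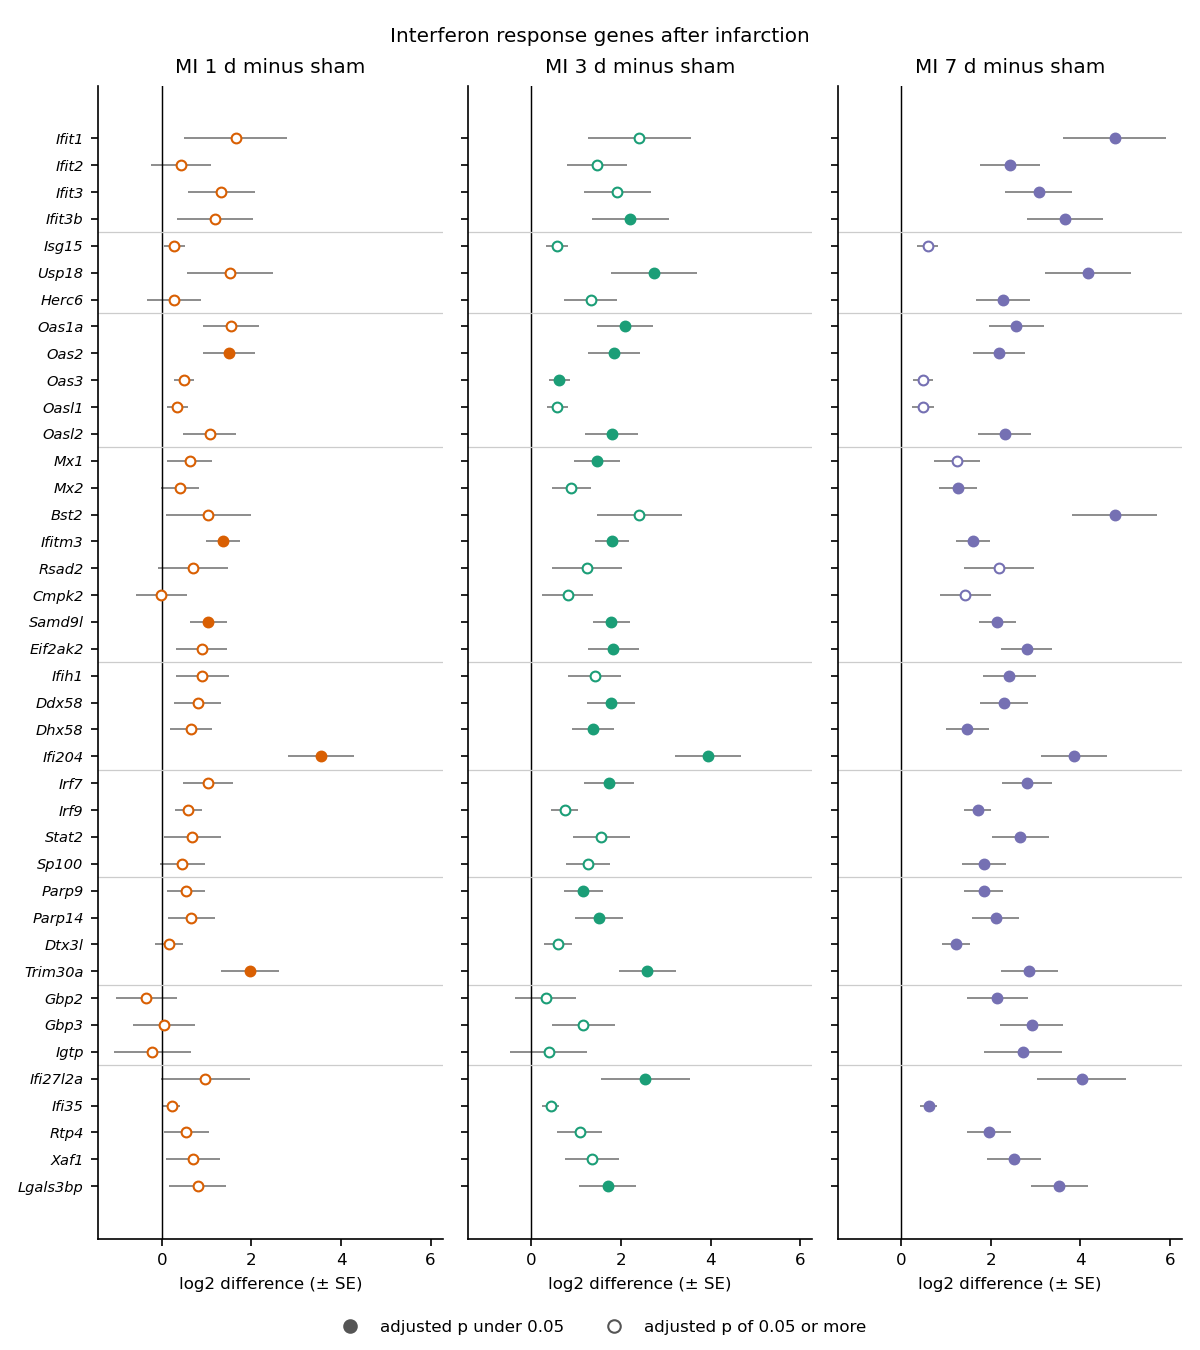
Log2 difference from sham, with its SE from the fit, of each of the 40 genes 1, 3 and 7 days after infarction, with filled points for an adjusted p under 0.05. Filled points number 5 on day 1, 19 on day 3 and 34 on day 7, and the differences reach 4.77 for Ifit1 and Bst2 on day 7.

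In most members the group mean was lowest in sham and highest on day 7. It was highest on day 7 in 35 of 40 and on day 3 in 5, and lowest in sham in 37 and on day 1 in 3. The day 7 minus day 1 difference had a median of 1.44 over the members, beside −0.027 over all tested genes. In that comparison 17 members were called higher and 0 lower, where 13.7% of all tested genes were called higher and 12.7% lower. The 4 day 7 values lay above the 4 day 1 values in 25 members (18.2% of all tested genes). Bst2 differed most, by 3.73 (SE 0.95, adjusted p = 0.0113), followed by Ifi27l2a with 3.06, Igtp with 2.93 and Gbp3 with 2.86 (adjusted p = 0.0355, 0.0233 and 0.00892). The count was 5 without array 74 (10.5% of all tested genes), 6 without array 13 (9.73%), 8 without array 12 (14.7%) or array 14 (10.8%) and 9 without array 71 (10.3%). It was 11 without array 73 (12.1%) and 25 without array 31 (21.5%). Bst2, Irf9, Gbp2, Gbp3 and Lgals3bp were called whichever array was left out.

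Day 3 gave few calls against either of the other days. Against day 1, 0 members were called in either direction, and 0 also at an unadjusted p under 0.05, although the difference was positive in 40 of 40 with a median of 0.69. Over all tested genes it was positive in 49.9%, with a median of −0.001. In that comparison 5.95% of all tested genes were called higher and 2.16% lower, and the groups stood apart with day 3 above in 0 members and 6.95% of all tested genes. Day 7 minus day 3 was positive in 35 of 40 with a median of 0.78, but the median was −0.04 with array weights and 0.37 without array 74. Among all tested genes this difference was positive in 43.0%, with a median of −0.049. In that comparison 1 member, Irf9, was called, by 0.97 (adjusted p = 0.0492), where 4.06% of all tested genes were called higher and 8.57% lower. The groups stood apart with day 7 above in 0 members and 10.4% of all tested genes. At an unadjusted p under 0.05, 6 members were higher, a threshold at which no share of all tested genes is given. Irf9 was not called there when any array other than day 3 array 33 or 34 was left out, and the count was 9 without array 33 (3.4% of all tested genes).

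The 4 arrays of day 3 did not give like values. For each of the 40 members arrays 33 and 34 both lay above arrays 31 and 32, an order found in 11.2% of all tested genes. The distance from the lower of arrays 33 and 34 to the higher of arrays 31 and 32 was at least 1 log2 unit in 35 of 40 members, against 94 of 18419 tested genes (0.51%). It was 4.27 for Ifit1, 4.14 for Usp18, 3.25 for Bst2 and 3.20 for Ifit3b. The smallest distances were 0.53 for Isg15, 0.58 for Ifi35, 0.59 for Oas3, 0.72 for Dtx3l and 0.89 for Oasl1. This order was noticed in the values and is given as a description with no test.

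Of the 94 genes so separated, 35 were members and 20 belonged to a list of 52 other tested interferon-induced genes, while 35 were on no list used here. The other 4 were the sensing gene Zbp1 and 3 myeloid markers, Fcgr1 with a distance of 2.18, Plac8 with 1.86 and Ly6c2 with 1.34, which are named here after their values were seen. The opposite order, arrays 31 and 32 above arrays 33 and 34, occurred in 3553 genes (19.3%), but by at least 1 log2 unit in 1. The day 3 calls turned on these arrays, and on the sham arrays as well. Without array 33 or without array 34, 6 members were called higher than sham on day 3. Without array 31, 36 were called, and without array 32, 34 were. Over all tested genes the share called higher was 22.3%, 21.9%, 26.8% and 21.6% with array 33, 34, 31 or 32 left out. The count was 10 or 11 when a sham array was left out, where 20.9% to 21.6% of all tested genes were called higher. With any sham array left out, the members called on day 3 were thus near the background share. The 6 members called whichever array was left out were Oas1a, Ifitm3, Samd9l, Ddx58, Ifi204 and Trim30a.

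**Figure D4:**
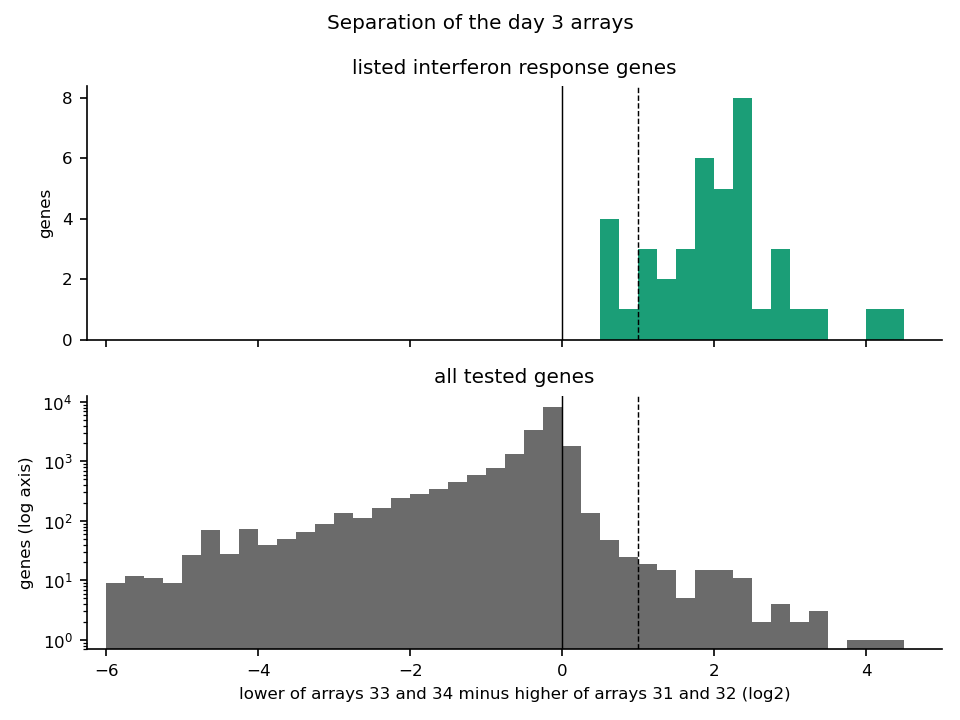
Histograms of the distance, in log2 units, from the higher of day 3 arrays 31 and 32 to the lower of arrays 33 and 34, for the 40 members (top) and all 18419 tested genes (bottom, log axis), with a solid line at 0 and a dashed line at 1. All 40 members lie to the right of 0 and 35 at or beyond 1, where 94 of all tested genes lie.

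In the other groups, too, the members tended to be high or low together. On day 1 array 11 was the highest of its group in 38 of 40 members (14.0% of all tested genes) and array 12 the lowest in 33 (30.2%). On day 3 array 33 was the highest in 39 (17.4%), and arrays 31 and 32 were the lowest in 20 each (51.4% and 10.5%). On day 7 array 74 was the highest in 38 (24.5%) and array 72 the lowest in 34 (18.4%). Sham was more mixed, with array 3 the highest in 25 (22.5%) and array 1 the lowest in 22 (33.2%). The median SD of the members over 4 arrays was 0.46 on day 1, 1.47 on day 3 and 0.82 on day 7, against 0.19 in sham, beside 0.18, 0.26, 0.13 and 0.12 over all tested genes. Members above every sham array numbered 37, 25, 30 and 35 on arrays 11 to 14, where 43.1%, 41.6%, 46.3% and 45.8% of all tested genes lay above it. They numbered 20, 22, 40 and 40 on arrays 31 to 34, where the shares were 46.4%, 44.2%, 36.6% and 39.6%. On each of arrays 71 to 74 all 40 lay above sham, where 30.6%, 35.1%, 33.7% and 36.1% of all tested genes did. Arrays 31 and 32 thus had the fewest. Without array 74 the day 7 count against sham was 27 (11.6% of all tested genes), and 27 members were called on day 7 whichever array was left out.

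Most interferon genes were too low to be tested. Of 20 listed interferon genes 17 were annotated and 5 passed the filter, and limma called 0 against sham on any day, with 1, Ifnl2 on day 1, at an unadjusted p under 0.05. Ifnl2 did not exceed the median of the negative controls on any of the 16 arrays, so no size is read from it. Ifnb1, the interferon beta gene, had signals of 3.66 to 4.18 on day 1, 3.71 to 3.98 on day 3 and 3.63 to 3.97 on day 7, against 3.69 to 4.03 in sham, and did not exceed the median of the negative controls on any of the 16 arrays. Ifng, the interferon gamma gene, likewise did not exceed it on any array. Ifnz, interferon zeta, exceeded it on 8 arrays. Its signals were 5.22, 4.57, 5.82 and 5.48 on day 1, 6.33, 4.49, 4.26 and 4.53 on day 3, and 4.07, 4.31, 4.51 and 4.25 on day 7, against 4.52, 4.44, 4.78 and 4.56 in sham. Arrays 11, 13, 14 and 31 lay above every sham array, and the differences of 0.70, 0.33 and −0.29 were not called (adjusted p = 0.127, 0.486 and 0.66). The highest values of Ifnz were on arrays 31 and 13, which had the lowest control separation (0.743 and 0.755). The negative-control medians of these arrays were also the highest, at 4.93 and 4.87. Ifnb1 and Ifng did not pass the filter for testing, and a change below background would not be seen here.

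The receptor chains differed in direction. Ifnar1 had signals of 9.17, 9.18, 9.13 and 9.29 on day 1, 9.24, 9.90, 9.57 and 9.66 on day 3, and 9.46, 9.69, 9.13 and 9.69 on day 7, against 8.49, 8.73, 8.81 and 8.66 in sham. Every infarction array was above every sham array, and Ifnar1 was higher by 0.52, 0.92 and 0.82 on days 1, 3 and 7 (adjusted p = 0.0125, 0.000232 and 0.00124). Its partner Ifnar2 differed by −0.02, 0.31 and 0.45 and was not called (adjusted p = 0.919, 0.185 and 0.0869). Of the interferon gamma receptor chains, Ifngr2 fell by 1.33 on day 1 and by 0.79 on day 3, and Ifngr1 rose by 0.71 on day 7. Il10rb, a chain shared with the interferon lambda receptor, fell by 0.80 and by 0.74 on days 1 and 3.

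Of 8 tested genes of receptor signalling and its brakes, 4 were called higher and 2 lower on day 1, 3 and 2 on day 3, and 2 and 0 on day 7. Ptpn6, a phosphatase of blood cells that damps receptor kinases, rose by 1.71, 1.92 and 1.56, and the kinase Jak2 by 0.92, 0.71 and 0.48. Ptpn2, a phosphatase that acts on Jak kinases, rose by 1.04 on day 1 (adjusted p = 3.64e-06), and the phosphatase Ptpn11 fell by 1.01 on day 3 (adjusted p = 0.0103). Of 15 tested genes of sensing upstream of interferon, 7, 10 and 7 were called higher on days 1, 3 and 7 and 1 lower on each day. For both lists, the shares of all tested genes were 24.9%, 23.5% and 14.9% higher and 22.2%, 20.2% and 9.92% lower. Sting1, the adaptor of DNA sensing, rose by 2.05, 2.72 and 2.15, and Tlr7, an endosomal RNA receptor, by 1.63, 1.85 and 2.71. Zbp1, a sensor of Z-form nucleic acid, rose by 1.89 on day 3 and 2.03 on day 7 (SE 0.66, adjusted p = 0.0303 and 0.0356). Mavs, the mitochondrial adaptor of RIG-I, fell by 1.58, by 1.43 and by 0.94. On day 3 arrays 33 and 34 exceeded arrays 31 and 32 by 2.21 in Zbp1 and by 0.84 in Tlr7, and did not both exceed them in Sting1.

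Of the 52 other tested interferon-induced genes 10 were called higher on day 1, 25 on day 3 and 40 on day 7, and 0 lower. Over all tested genes 24.9%, 23.5% and 14.9% were called higher and 22.2%, 20.2% and 9.92% lower. The share of the 52 called higher on day 1 was thus below that of all genes. Their median log2 difference was 0.23, 0.67 and 1.09. Ms4a4c, a four-span membrane protein of myeloid cells, differed most on each day, by 4.16, 5.14 and 4.10 (adjusted p = 0.00461, 0.00096 and 0.00857). Ifi30, a lysosomal thiol reductase, differed by 2.89 on day 1 and 3.56 on day 3, and Ifi207, of the family of Ifi204, by 2.45 on day 1. Phf11b differed by 3.69 on day 3 and 3.99 on day 7, and Rnf213, a large ubiquitin ligase, by 3.53 on day 7. On day 3, 50 of these 52 had arrays 33 and 34 above arrays 31 and 32, and 20 by at least 1 log2 unit.

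Markers of myeloid cells rose in the same atria, where 24.9%, 23.5% and 14.9% of all tested genes were called higher on days 1, 3 and 7. All 12 macrophage markers were called higher on days 3 and 7 and 7 of 12 on day 1, and their mean lay above sham by 2.19, 2.18, 2.35 and 2.10 on arrays 11 to 14, by 2.08, 3.47, 3.93 and 3.62 on arrays 31 to 34, and by 3.13, 3.42, 2.54 and 4.00 on arrays 71 to 74. The mean of the 40 members lay above sham by 1.38, 0.33, 0.64 and 0.89, by 0.23, 0.34, 2.98 and 2.49, and by 2.20, 1.64, 2.06 and 3.51 on those arrays. Array 32 was thus high for the macrophage markers and low for the members, and 6 of 12 macrophage markers had arrays 33 and 34 above arrays 31 and 32, 1 of them by at least 1 log2 unit. Neutrophil markers were highest on day 1, with 6 of 7 tested called higher on days 1 and 3 and 0 on day 7. Their mean lay 5.03 to 6.44 above sham on day 1 and 0.20 to 0.44 above it on day 7. On day 3 it was 5.44 on array 31 and 1.64, 1.72 and 1.62 on arrays 32, 33 and 34. None of the 7 had arrays 33 and 34 above arrays 31 and 32.

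Monocyte markers were called higher in 2, 3 and 2 of 4 cases on days 1, 3 and 7, with means on arrays 31 to 34 of 0.90, 1.63, 2.53 and 2.45 above sham. Of these 4, 2 had arrays 33 and 34 above arrays 31 and 32, both by at least 1 log2 unit. Fibroblast markers lay below sham on day 1, with list means of −0.98, −0.68, −1.65 and −0.37 on arrays 11 to 14. The means were −0.43, 1.26, 1.10 and 1.00 on arrays 31 to 34 and 2.42, 2.65, 2.36 and 2.89 on arrays 71 to 74. Of the 5 tested, 4 were called lower than sham on day 1, 1 higher on day 3 and 4 higher on day 7, and 5 of 5 were called higher on day 7 than on day 1, with a median difference of 4.09. Of 7 endothelial markers 1, 2 and 2 were called higher on days 1, 3 and 7 and 3 lower on day 1, and of 3 conventional dendritic cell markers 1, 2 and 1 were called higher. Of 6 mesothelial markers 2 were called lower on day 1, and of 8 cardiomyocyte markers 4 were called lower on day 1 and 5 on day 3. Beside these counts of markers called lower, the shares of all tested genes called lower were 22.2% on day 1 and 20.2% on day 3. Of plasmacytoid dendritic cell markers 1 of 5, of T and NK cell markers 2 of 8 and of B cell markers none passed the filter, and of those tested limma called 0 on any day, with 0 also at an unadjusted p under 0.05. The part of these cells, and of the low control separation of arrays 13 and 31, in the levels of the interferon response genes was not tested. With both of those arrays left out, 5, 35 and 36 members were called higher than sham on days 1, 3 and 7, where the shares of all tested genes were 33.0%, 28.2% and 21.3%.

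**Figure D5:**
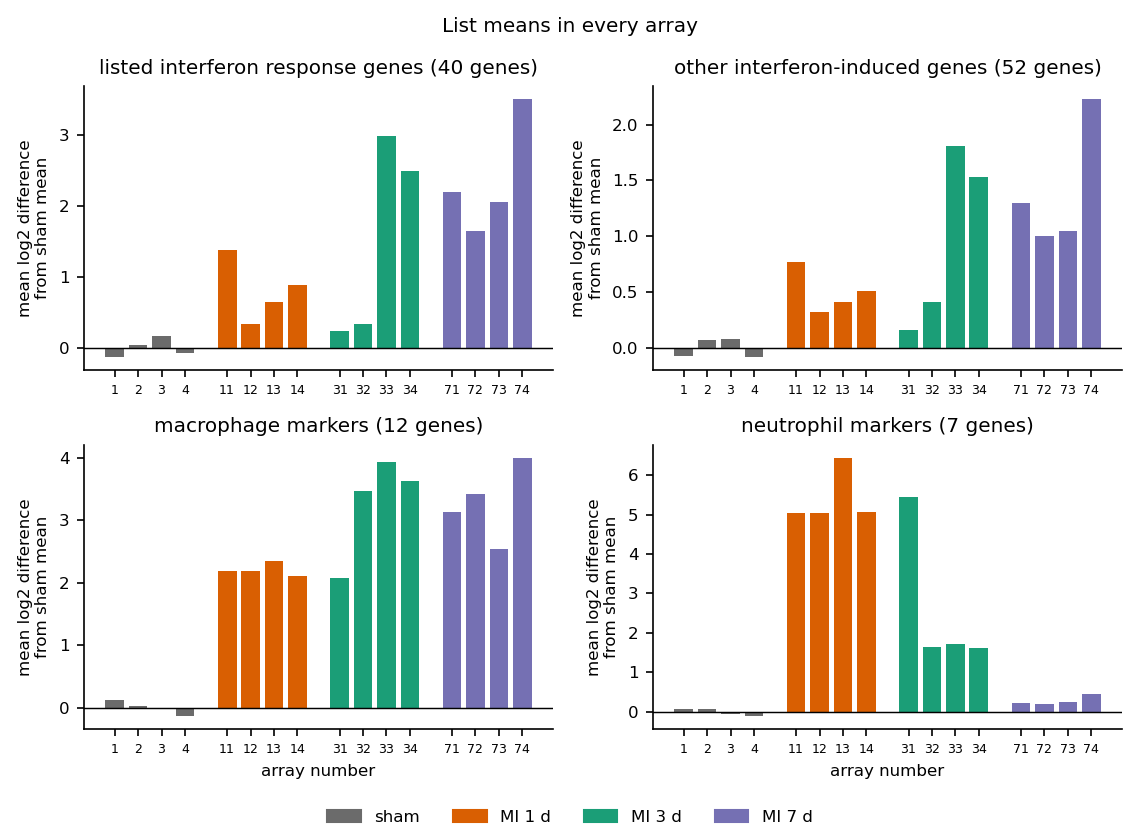
Bars of the mean log2 difference from the sham mean on each of the 16 arrays, coloured by group, for the 40 members, 52 other interferon-induced genes, 12 macrophage markers and 7 neutrophil markers, each panel with its own axis from 0. Arrays 31 and 32 differ from arrays 33 and 34 in the interferon panels (0.23 and 0.34 against 2.98 and 2.49 for the members), whereas array 32 stands with arrays 33 and 34 for macrophage markers and array 31 is the high one of the day 3 arrays for neutrophil markers.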

How the data were processed

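Total RNA of mouse atria was hybridised to single-colour Affymetrix arrays, 4 per group. The array named in the labels does not match the row names, which are transcript clusters of another design, so the array design is uncertain. The deposited values, log2 signals as made by the authors, came from Affymetrix Expression Console according to the submitters' processing notes. Their background correction and scaling, not given in the sources used here, are unknown. Rows with 1 gene symbol (30604) gave 30141 genes, 813 rows after a symbol update through the gene ID; of 356 genes with several rows the row of highest mean was used. Genes above the array median on at least 4 of 16 arrays were tested with limma 3.58.1 (R 4.3.3; lmFit, eBayes with trend), 1 mean per group, in 6 pairwise comparisons, with Benjamini-Hochberg adjustment over all tested genes; an F test covered the infarction days together. The fitting code was tested on simulated data. The members, 5 pathway lists, 11 lists of cell markers and tests were chosen with earlier results of these data known.

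Per-array signals are printed for Isg15, Ifit1, Usp18, Irf7, Irf9 and Stat2, for the 4 called members of largest difference on each day, and for up to 4 called members per comparison between days; pathway genes are the 3 largest called per list and day, with Ifnar1, Ifnar2, Ifnb1 and Ifng always. Promoter motifs were counted in RefSeq windows. No correlation over arrays is given, because the day 3 arrays fall apart into separate values. Alternatives were quantile normalisation, centring, no filter, mean of rows, array weights and leaving out arrays; the scaling of the day 3 array order was varied as an alternative chosen after seeing the data.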

Additional observations from a re-analysis of the deposited data

Results flagged for a closer look

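Among 160 sets of 4 arrays (40 members in 4 groups), 11 had a highest or lowest array whose gap to its nearest neighbour, divided by the range, exceeded Dixon's critical value at the 95% level, which chance alone passes in about 5% of sets. Array 74 was the one set apart on day 7, at 6.30 for Isg15 (other arrays 5.08 to 5.27), 5.0 for Oas3 (4.14 to 4.26), 6.76 for Mx1 (4.60 to 4.96), 10.76 for Samd9l (9.19 to 9.32), 15.16 for Ifi204 (12.79 to 13.12) and 13.51 for Igtp (10.10 to 10.27). On day 1 it was array 11, at 7.12 for Irf9 (6.54 to 6.58) and 7.08 for Parp9 (6.63 to 6.65). In sham it was array 3 at 6.66 for Ifit1 (6.18 to 6.26) and 7.45 for Xaf1 (6.78 to 6.84), and array 1 at 6.04 for Oasl2 (6.47 to 6.50). The difference between days was itself tested in limma, where 17 members were higher on day 7 than on day 1 and 1, Irf9, was higher on day 7 than on day 3.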

How the results depend on the processing

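No paired analysis was possible because the array numbers are not shared between groups. No member called in any comparison changed direction under any alternative, and 0 members were called lower in each. The day 7 minus day 3 median over members was −0.04 with array weights, against 0.78 with equal weights; the cause was not tested. Members called higher on day 1 numbered 3 under quantile normalisation, with centred arrays and without the filter, and 10 with array weights. Over all genes fitted, the first 3 of these settings called 9406, 8046 and 8448 genes on day 1 in either direction. Of those calls 36.7%, 39.5% and 54.8% were higher. On day 3 the members called higher numbered 11 with centred arrays, 38 with array weights and 35 without arrays 31 and 13. Centred arrays gave 6765 calls over all tested genes on day 3, of which 43.0% were higher. Between day 3 and day 1, 9 members were called with array weights. The shares of all tested genes called higher with array weights were 36.2%, 30.4% and 21.3% in these 3 comparisons, so that 9 of 40 is near the background. Between day 7 and day 3, 0 were called with centred arrays, without the filter, with array weights and without arrays 31 and 13. With single arrays left out, the member counts against sham ranged from 2 to 6 on day 1, 6 to 36 on day 3 and 27 to 36 on day 7. The shares of all tested genes called higher were 18.1% to 35.6%, 20.9% to 26.8% and 11.6% to 19.5%. The member counts ranged from 0 to 4 for day 3 against day 1, 0 to 9 for day 7 against day 3 and 5 to 25 for day 7 against day 1. The shares there were 3.02% to 18.8%, 2.37% to 4.92% and 9.73% to 21.5%. For the F test the count ranged from 22 to 36 (32 with all arrays, where 52.3% of all tested genes were called). The day 1 count was 2 without array 11. The medians over members ranged from 0.49 to 0.88, 1.01 to 1.86 and 1.88 to 2.55 against sham on days 1, 3 and 7, from 0.19 to 1.13 for day 3 against day 1, 0.37 to 1.16 for day 7 against day 3 and 1.00 to 1.68 for day 7 against day 1. The order of the day 3 arrays held in 40 members under quantile normalisation and centring, and by at least 1 log2 unit in 34 and 36. Over all tested genes the share of calls that were higher was 52.9%, 53.8% and 60.0% on days 1, 3 and 7 as deposited, 36.7%, 37.7% and 44.6% after quantile normalisation, and 39.5%, 43.0% and 68.1% after centring. For day 7 against day 3 it was 32.1%, 53.0% and 43.1%, and for day 7 against day 1 51.8%, 63.3% and 66.2%, in the same order. Centring moved the median of all tested genes by over 0.1 in 4 comparisons: day 1 against sham (−0.094, and 0.064 as deposited), day 3 against sham (−0.039 and 0.082), day 7 against day 3 (0.058 and −0.049) and day 7 against day 1 (0.116 and −0.027). Quantile normalisation did so for day 1 (−0.068) and day 3 (−0.04) against sham. Signals near the negative controls (Oas3, Oasl1, Mx1, Isg15 and the ligands) limit what can be read.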
